A study of Mus musculus with 6 samples.

Results

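The genes described here are 45 components of the secretory pathway and the unfolded protein response, among the 17438 genes of the deposited table. They were chosen by name from knowledge of the pathway, but with earlier results of these data known. They cover chaperones of the endoplasmic reticulum (ER), protein disulfide isomerases, ER-associated degradation, and stress sensors with their transcription factors. Integrated stress response targets, the translocon and its TRAP complex, and signal peptidase complete the set. All 45 were in the table and passed the filter on low counts. They were measured by RNA sequencing in cultured, sorted lung group 2 innate lymphoid cells (ILC2s) of mice, labelled strain CB57BL/6 and treated with IL-33. The 3 control libraries (WT1, WT2 and WT3) are labelled WT, and the 3 knockout libraries (KO1, KO2 and KO3) carry the genotype B6.129S4-Cd48tm1Rsr/EpaulJ, a targeted allele of Cd48, which encodes a cell surface receptor of the SLAM family. Age, the IL-33 dose, and whether libraries came from separate animals or cultures are not stated in the sources at hand, so p-values measure only the spread between these libraries. The series' design text speaks of duplicates, while 3 samples of each genotype are listed, and all were used. The comparison asks how transcripts of this machinery differ between WT and Cd48 KO ILC2s.

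Proteins bound for secretion enter the ER through the Sec61 channel, lose their signal peptide to signal peptidase, and are folded and oxidised by chaperones and disulfide isomerases, while misfolded proteins are sent back to the cytosol for degradation. When unfolded proteins build up, the sensors IRE1 (Ern1), ATF6 and PERK (Eif2ak3) raise the synthesis of this machinery through the factors XBP1, ATF6 and ATF4. Activated ILC2s secrete large amounts of the type 2 cytokines IL-5 and IL-13, and therefore depend on this route.

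The ER stress response element (ERSE) is the DNA motif through which ATF6 and XBP1 act on ER chaperone genes. The sites are shown because they mark the members that share this input. Promoter windows of 250 bases before to 50 bases after the RefSeq start site (GRCm38.p6) were matched for 37 of the 45 members, the others being Spcs3, Sec11c, Atf6, Manf, Derl1, Sec61a1, Ssr2 and Hyou1. On both strands they were searched for CCAAT and CCACG with 9 bases of any kind between them (ERSE), ATTGG and CCACG with 1 base between them (ERSE-II), TGACGTGG (an XBP1-binding element, UPRE) and TGATGCAA (a C/EBP-ATF response element, CARE). ERSE-II and ERSE share the letters CCACG. The 7 members with an ERSE are given below, each 5′ to 3′ in the reading direction of the motif, with the fixed letters in capitals. Hsp90b1 holds a pair of sites.
Hspa5, upstream end 65 bases before the start: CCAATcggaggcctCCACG
Calr, 162 bases before: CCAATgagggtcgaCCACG
Hsp90b1, 212 bases before: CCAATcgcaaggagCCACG
Hsp90b1, 107 bases before: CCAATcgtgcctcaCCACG
Canx, 145 bases before: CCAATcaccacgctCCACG
Pdia6, 98 bases before: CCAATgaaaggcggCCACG
Dnajc3, 105 bases before: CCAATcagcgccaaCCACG
Syvn1, 44 bases before: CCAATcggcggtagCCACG
ERSE-II, Herpud1, 52 bases before: ATTGGgCCACG
ERSE-II, Dnajb11, 7 bases after: ATTGGcCCACG

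An ERSE was thus in 18.9% of the members' windows by gene and in 0.137% of all 27025 genes with a window. ERSE-II was in 5.41% of the members and in 0.0444% of all genes. CARE, searched only as TGATGCAA, was in Chac1 and Herpud1, 5.41% of the members against 1.03% of all genes. Other spellings were not counted, such as TGATGAAA in the Asns window, so a member without a match may still hold a related site. UPRE was in none of the 37, against 0.714% of all genes. These are letter matches and not measured binding. The members were chosen as genes of this response, on which these motifs are known to act. Higher shares among them were therefore built into the choice and are no finding of these data. The upstream stretches of 3 members show the motifs in place, with motif letters in capitals. That of Hspa5 (BiP, the main ER chaperone) holds an ERSE, and that of Herpud1 (an ER-associated degradation component) holds ERSE-II and CARE. That of Chac1 (a glutathione-degrading ATF4 target) holds CARE. In both Herpud1 and Chac1 the CARE is on the opposite strand.
Hspa5, chr2:34771840-34772089, plus strand: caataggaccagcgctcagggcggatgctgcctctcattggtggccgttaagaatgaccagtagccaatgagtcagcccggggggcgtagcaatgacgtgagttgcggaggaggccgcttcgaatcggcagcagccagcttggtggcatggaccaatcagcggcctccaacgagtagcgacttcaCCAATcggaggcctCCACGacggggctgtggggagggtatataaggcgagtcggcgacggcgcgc
Herpud1, chr8:94386179-94386428, plus strand: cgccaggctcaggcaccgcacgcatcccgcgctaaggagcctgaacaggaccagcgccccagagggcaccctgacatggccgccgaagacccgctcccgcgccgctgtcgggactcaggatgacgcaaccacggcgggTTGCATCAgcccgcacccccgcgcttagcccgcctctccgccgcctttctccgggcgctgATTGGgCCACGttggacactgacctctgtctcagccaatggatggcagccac
Chac1, chr2:119350992-119351241, plus strand: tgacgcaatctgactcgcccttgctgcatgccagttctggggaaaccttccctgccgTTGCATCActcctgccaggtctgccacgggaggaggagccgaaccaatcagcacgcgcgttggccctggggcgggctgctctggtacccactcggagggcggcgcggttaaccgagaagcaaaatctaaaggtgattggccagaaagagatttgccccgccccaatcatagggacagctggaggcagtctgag

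Levels are in CPM, counts scaled to a common library total with library sizes adjusted by TMM, and library totals ran from 14928623 to 27450400 counts. Cd48 was at 58.2, 46.6 and 41.6 CPM in WT1 to WT3 and at 4.52, 5.59 and 4.40 CPM in KO1 to KO3 (edgeR log2 fold change -3.33, adjusted p = 0.00285), in the direction of the labels. Of 12 ILC2 markers all exceeded a mean of 1 CPM, and their summed level was 12424 to 16129 CPM in WT and 14122 to 14934 CPM in KO. Il5 was the largest part, at 10007 CPM in WT1 and 5597 to 7642 CPM in the other libraries. In WT1, Il5, Gata3, Id2 and Thy1 were above every other library. Il1rl1, Il7r, Rora, Icos, Klrg1 and Ptprc were below every other library there, and Il2ra and Il13 lay within their range. Plasma cells share high secretory gene expression. Of 10 B and plasma cell markers 3 could be read, Cd79a, Cd79b and Sdc1, with a summed level of 15.8 to 22.7 CPM in WT and 14.5 to 18.1 CPM in KO. Cd79b made up most of this sum, at 12.1 to 19.7 CPM across the libraries. Sdc1 was at 0.68 to 3.47 CPM, and Cd79a was below 0.3 CPM in each library. Of 9 lung epithelium markers 8 could be read, and their sum was higher in every WT library (31.4 to 83.2 CPM) than in every KO library (10.1 to 24.1 CPM). Different genes of that list carried the sum in different libraries. Epcam was at 17.4 to 20.3 CPM in WT and at 9.16 to 12.9 CPM in KO. Scgb1a1 ran from 0 in KO1 to 47.2 CPM in WT3. Sftpc, a surfactant gene, ran from 0 in WT1 and KO3 to 23.3 CPM in WT2. The sum of the 4 T cell markers read was 64.9 to 137 CPM in WT and 48.7 to 57.5 CPM in KO, almost all of it Lat. WT1 stood apart: its log2 CPM correlated with WT2 and WT3 at r = 0.932 and 0.928 across genes, against 0.985 for WT2 with WT3. Tests were therefore run with all 6 libraries and again without WT1. For 12 members (Hsp90b1, Manf, Pdia3, Syvn1, Derl2, Herpud1, Ddit3, Sec61a1, Spcs1, Spcs2, Spcs3 and Sec11a) another gene of the table overlaps, and reads of the pair may not be separated.

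In the edgeR fits with all 6 libraries and without WT1, no member was called different between the genotypes, while some alternatives without WT1 called 1 or more. With all 6 libraries, edgeR's quasi-likelihood test called 0 of 45 members at an adjusted p under 0.05, and 0.03% of all 13317 tested genes. DESeq2 called 0 members and 0.811% of all genes, and limma-voom, with a quality weight per sample, called 0 members and 0.713% of all genes. Without WT1, edgeR again called 0 of 45, while 1.82% of 13643 tested genes were called. In that fit DESeq2 called 1 member, Ssr3, and limma-voom called 0, against 3.02% and 1.6% of all genes. At an unadjusted p under 0.05 the count was 1 member with 6 libraries (background 6.89%) and 4 without WT1 (background 13.7%). The lowest adjusted p among members was 0.690 with 6 libraries and 0.0634 without WT1 (edgeR). Libraries of the genotypes did not overlap for 6 members with 6 libraries, 1 higher and 5 lower in KO (19.3% of all genes), and for 12 without WT1, 4 higher and 8 lower (30% of all genes, 15.8% higher). When KO1 was left out as well as WT1, edgeR called 2 members, Ssr3 and Eif2ak3, against 3.82% of all genes.

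The precision of these values depended on WT1. The median standard error of the members' log2 fold change was 0.19 with 6 libraries and 0.070 without WT1. With WT1 left out, the 95% interval of the fold change lay within 1.5-fold of no difference for 43 of 45 members and within 1.2-fold for 30. Among genes averaging 10 CPM or more the corresponding shares were 86.5% and 27.4%. With 6 libraries the counts were 17 and 3 members, against 44.6% and 0.807% of such genes. Those genes were not matched to the members in level, and intervals tend to narrow as counts rise. The shares therefore do not show that the members were unusually constant. The 2 members with wider intervals without WT1 were Eif2ak3 and Chac1, at low mean levels of 21.6 and 16.5 CPM over the 6 libraries. The median log2 fold change, KO minus WT, was -0.12 over the members with 6 libraries (all genes -0.0039) and -0.0069 without WT1 (all genes 0.00048). KO was higher for 13 of 45 members with 6 libraries (49.5% of all genes) and for 20 of 45 without WT1 (50.2% of all genes). The sign of the fold change differed between these fits for 15 of 45 members.

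**Figure D1:**
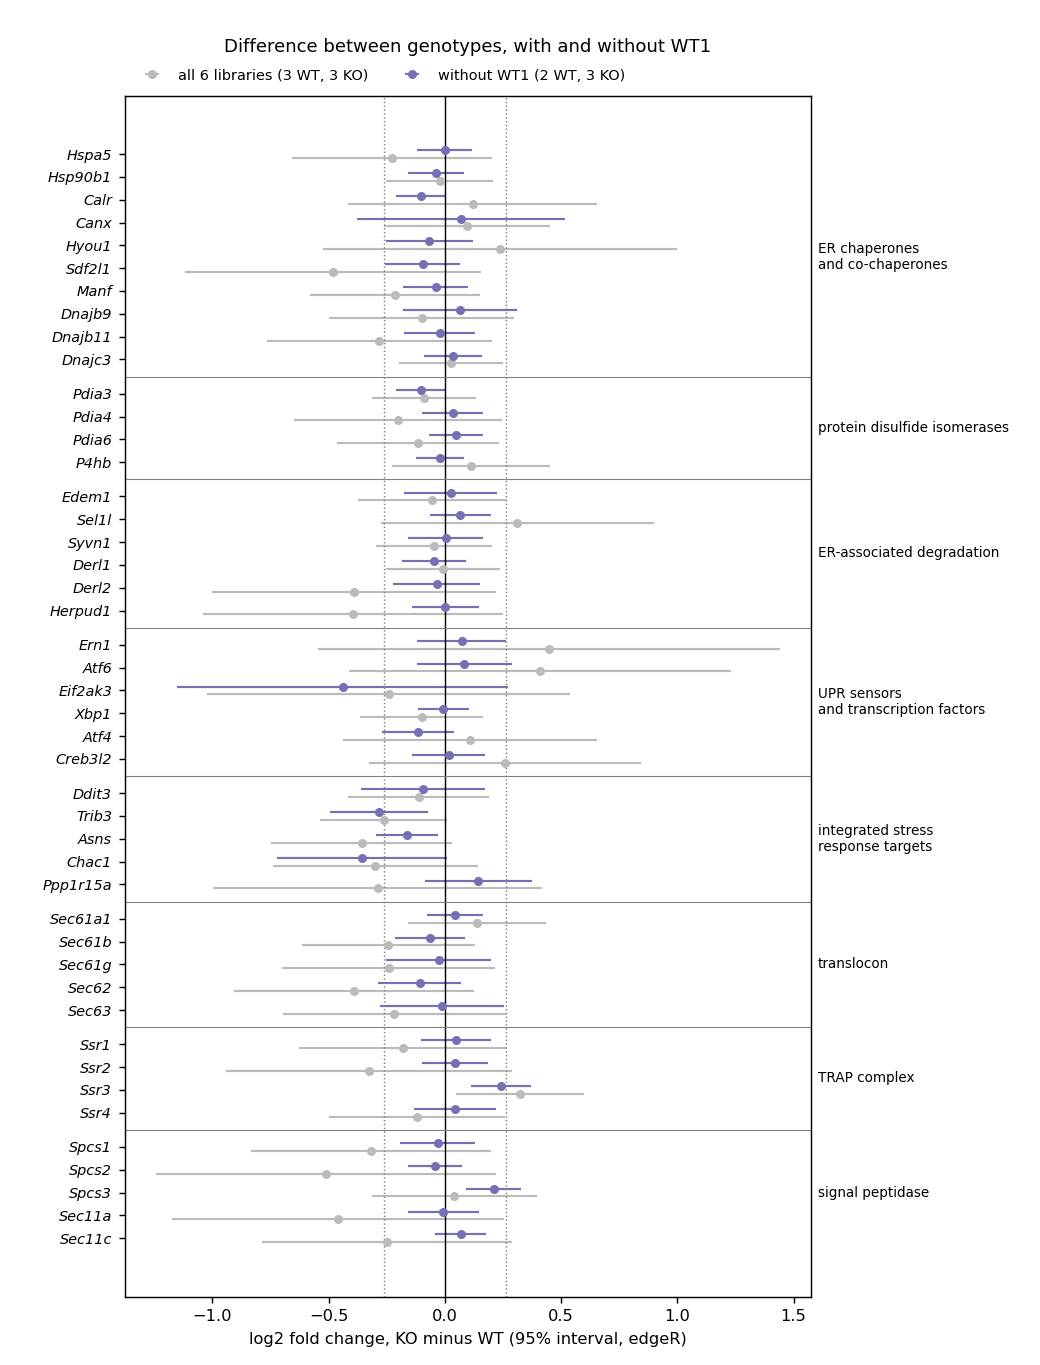
Log2 fold change, KO minus WT, of the 45 members (points) with the 95% interval of the edgeR fit (bars), grouped by role, for all 6 libraries (grey, 3 WT and 3 KO) and without WT1 (purple, 2 WT and 3 KO); dotted lines mark 1.2-fold. The purple intervals are the narrower for most members, and 30 of them lie within the dotted lines.

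Among ER chaperones and co-chaperones, 0 of 10 were called in either edgeR fit. Hspa5 (BiP), the chaperone that also holds the stress sensors inactive, was at 1928, 1214 and 1353 CPM in WT1 to WT3 and at 1312, 1248 and 1282 CPM in KO1 to KO3. WT1 was the highest library, and the KO libraries lay within the range of WT2 and WT3. The log2 fold change was -0.23 with 6 libraries and -0.0012 without WT1, with a 95% interval from -0.12 to 0.12. Hsp90b1 (GRP94), the ER member of the HSP90 family, was at 1116, 1182 and 1143 CPM in WT and at 1112, 1201 and 1074 CPM in KO, so the genotypes overlapped and WT1 did not stand out. Calr (calreticulin), a calcium-binding lectin chaperone, had all KO libraries below WT2 and WT3 but above WT1, and its log2 fold change was 0.12 with 6 libraries and -0.10 without WT1. Its membrane partner Canx (calnexin) was at 0.10 and 0.07. The remaining 6, Hyou1, Sdf2l1, Manf and the BiP co-chaperones Dnajb9, Dnajb11 and Dnajc3, ranged from -0.48 (Sdf2l1) to 0.24 (Hyou1) with 6 libraries and from -0.10 to 0.06 without WT1.

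The protein disulfide isomerases form and rearrange disulfide bonds, and 0 of 4 were called in either fit. Pdia3 (ERp57), which works with calreticulin and calnexin on glycoproteins, was at 1600, 1676 and 1629 CPM in WT and at 1602, 1547 and 1461 CPM in KO. KO1 lay between WT1 and WT3, so the genotypes overlapped with 6 libraries and separated only when WT1 was left out, at a log2 fold change of -0.10 (interval -0.21 to 0.0049, adjusted p = 0.391, edgeR). P4hb (PDI) was at 655, 885 and 907 CPM in WT and at 890, 882 and 874 CPM in KO. Its WT1 library was low and the other 5 had a coefficient of variation of 1.36%. Pdia4 and Pdia6 had log2 fold changes of -0.20 and -0.12 with 6 libraries and of 0.034 and 0.050 without WT1.

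ER-associated degradation removes misfolded proteins, and 0 of 6 members were called by edgeR in either fit. Edem1, which directs mannose-trimmed glycoproteins to degradation, was at 477, 403 and 415 CPM in WT and at 476, 389 and 381 CPM in KO, where WT1 and KO1 were the high libraries. Derl1, a membrane component of the export channel, was at 217, 230 and 244 CPM in WT and at 238, 220 and 230 CPM in KO. Syvn1 and Sel1l (the HRD1 ubiquitin ligase and its partner), Derl2 and Herpud1 had log2 fold changes of -0.047, 0.31, -0.39 and -0.39 with 6 libraries, and from -0.036 to 0.067 without WT1. All 6 members of the group had an interval within 1.2-fold in that fit.

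The sensors and transcription factors likewise had 0 of 6 called by edgeR in either fit. Xbp1 was the steadiest member over the 5 libraries without WT1, with a coefficient of variation of 1.16%: it was at 610, 514 and 506 CPM in WT and at 505, 515 and 501 CPM in KO. The counts are per gene, so the IRE1-spliced form of Xbp1 was not measured. Ern1 (IRE1), which splices it, was at 34.4, 105 and 119 CPM in WT and at 127, 119 and 107 CPM in KO. WT1 was the only library far from the others, and the log2 fold change was 0.45 with 6 libraries and 0.07 without WT1. Atf6, a sensor cleaved in the Golgi to release a transcription factor, was at 20.5, 50.8 and 54.5 CPM in WT and at 58.9, 55.8 and 52.8 CPM in KO, so the genotypes overlapped with and without WT1. Atf6 lies on chromosome 1 (170704674 to 170867771, minus strand, GRCm38), 0.81 Mb from Cd48, and its log2 fold change was 0.41 with 6 libraries and 0.08 without WT1 (interval -0.12 to 0.29).

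Atf4, the factor translated when PERK is active, was at 108, 193 and 191 CPM in WT and at 164, 179 and 187 CPM in KO. Without WT1 all KO libraries lay below WT, at a log2 fold change of -0.11 (adjusted p = 0.537, edgeR). Creb3l2, an ATF6-like factor linked to the secretory programme of other cells, was at 111, 194 and 221 CPM in WT and at 221, 202 and 205 CPM in KO. Eif2ak3 (PERK, chromosome 6, 70844515 to 70905245, plus strand) was the most variable member, with a coefficient of variation of 30.4% over 5 libraries. It was at 16.3, 30.4 and 23.7 CPM in WT and at 28.0, 17.6 and 13.9 CPM in KO. KO1 was in the range of WT2 and WT3, and KO2 and KO3 were below both. Its log2 fold change without WT1 was -0.44 (interval -1.15 to 0.27, adjusted p = 0.600, edgeR), and it was -0.76 (adjusted p = 0.0403) when KO1 was left out too. Over all alternatives without WT1 its adjusted p ran from 0.0229 to 0.874.

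Integrated stress response targets are induced by ATF4 and CHOP when the kinase PERK or its relatives are active. Of the 5 members 0 were called by edgeR in either fit. With 6 libraries, 4 of them (Ddit3, Trib3, Asns and Chac1) had every KO library below every WT library, which then necessarily holds without WT1. Over all genes 9.11% were placed so with 6 libraries and 14.3% without WT1. Trib3 (chromosome 2, 152337422 to 152344032, minus strand), a pseudokinase that inhibits ATF4 signalling, was at 49.3, 50.2 and 53.3 CPM in WT and at 41.2, 44.7 and 41.4 CPM in KO. Its log2 fold change was -0.26 with 6 libraries and -0.28 without WT1 (interval -0.50 to -0.07, adjusted p = 0.198, edgeR). Asns (chromosome 6, 7675169 to 7693254, minus strand), asparagine synthetase, was at 349, 240 and 249 CPM in WT and at 211, 224 and 220 CPM in KO. WT1 was its highest library, and its log2 fold change was -0.36 with 6 libraries and -0.16 without WT1 (interval -0.30 to -0.03, adjusted p = 0.252, edgeR).

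Chac1 was at 16.8, 17.02 and 20.8 CPM in WT and at 15.5, 16.7 and 12.2 CPM in KO, a gap of less than the spread within either genotype (log2 fold change without WT1 -0.36, interval -0.72 to 0.0076). Ddit3 (CHOP), the factor associated with cell death under lasting ER stress, was at 24.7, 25.2 and 22.8 CPM in WT and at 22.6, 22.7 and 22.0 CPM in KO, at -0.09. Ppp1r15a (GADD34), which reverses the block on translation, was the exception: it was at 66.5, 32.2 and 32.6 CPM in WT and at 37.2, 36.2 and 33.9 CPM in KO, with KO above WT2 and WT3 and below WT1. The 5 levels summed to 506, 365 and 379 CPM in WT and to 327, 344 and 329 CPM in KO. The median log2 fold change of the group was -0.29 with 6 libraries and -0.16 without WT1, against -0.0039 and 0.00048 over all genes. The summed epithelial markers and the summed T cell markers were also higher in every WT library than in every KO library, and their part in this lean was not tested.

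**Figure D2:**
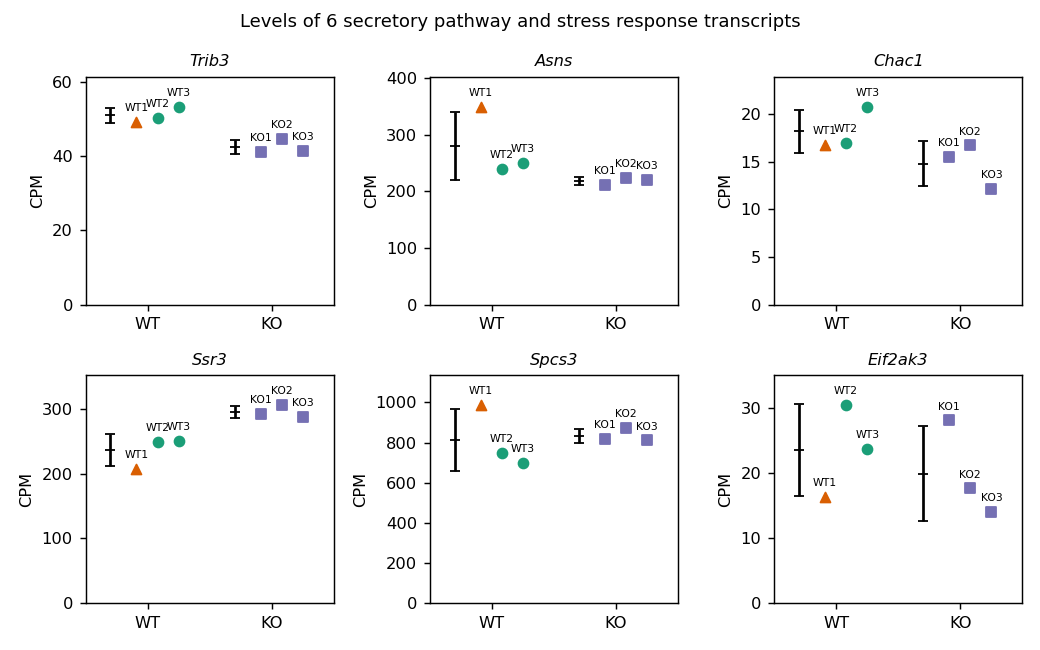
CPM of 6 members in each library (WT1 triangle, WT2 and WT3 circles, KO squares), with the mean and SD of the 3 libraries of each genotype as black bars; axes start at 0. Trib3, Asns and Chac1 have each KO library below each WT library, Ssr3 has each KO library above, Spcs3 separates only without WT1, and the genotypes overlap for Eif2ak3.

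The translocon carries nascent chains into the ER, and 0 of 5 members were called by edgeR in either fit. Sec61a1, the channel itself, was at 493, 611 and 624 CPM in WT and at 626, 668 and 609 CPM in KO, with WT1 low and the rest overlapping. Sec61b, a small channel subunit, was at 209, 150 and 150 CPM in WT and at 137, 146 and 147 CPM in KO. All its KO libraries lay below WT, by a log2 fold change of -0.24 with 6 libraries and -0.06 without WT1. Sec61g and the post-translational partners Sec62 and Sec63 were at -0.24, -0.39 and -0.22 with 6 libraries and at -0.027, -0.11 and -0.012 without WT1.

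The TRAP complex, which sits beside Sec61 and helps some proteins enter the ER, held the member nearest to a call. Ssr3 (TRAP gamma, chromosome 3, 65379655 to 65392623, minus strand) was at 208, 250 and 252 CPM in WT and at 292, 306 and 288 CPM in KO, so that every KO library was above every WT library. Over all genes 10.2% were placed so with 6 libraries. The mean was 250.6 ± 1.32 CPM (SD, n = 2) in WT2 and WT3 and 295.6 ± 9.51 CPM (SD, n = 3) in KO. The log2 fold change was 0.32 with 6 libraries (adjusted p = 0.690, edgeR) and 0.24 without WT1 (interval 0.11 to 0.37, adjusted p = 0.0634, edgeR). DESeq2 gave an adjusted p of 0.0209 without WT1, and edgeR 0.0496 without WT1 and KO1. Over all alternatives without WT1 the adjusted p ran from 0.0209 to 0.293. The other subunits showed no such separation. Ssr2 was at 539, 306 and 272 CPM in WT and at 286, 300 and 304 CPM in KO. Ssr1 was at 385, 255 and 255 CPM in WT and at 280, 270 and 239 CPM in KO. The log2 fold changes of Ssr2, Ssr1 and Ssr4 were -0.33, -0.18 and -0.12 with 6 libraries and 0.043, 0.046 and 0.045 without WT1.

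Signal peptidase cleaves signal peptides during translocation, and 0 of 5 subunits were called by edgeR in either fit. Spcs3 (chromosome 8, 54520433 to 54529998, minus strand), a non-catalytic subunit, was at 987, 747 and 699 CPM in WT and at 819, 874 and 811 CPM in KO. WT1 was above every KO library while WT2 and WT3 were below every one. Its log2 fold change was 0.041 with 6 libraries and 0.21 without WT1 (interval 0.09 to 0.33, adjusted p = 0.0845, edgeR), and its adjusted p over the alternatives without WT1 ran from 0.0281, which is past the threshold, to 0.383. Sec11c, a catalytic subunit, was at 1183, 693 and 675 CPM in WT and at 702, 736 and 709 CPM in KO, with a log2 fold change of -0.25 with 6 libraries and 0.07 without WT1 (adjusted p = 0.621, edgeR). Spcs1, Spcs2 and Sec11a were at -0.32, -0.51 and -0.46 with 6 libraries and ranged from -0.041 to -0.0069 without WT1. The 5 levels summed to 3777, 2266 and 2125 CPM in WT1 to WT3 and to 2293, 2387 and 2278 CPM in KO, so that WT1 alone stood apart.

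Across the 37 members with a promoter window, the 9 with an ERSE or ERSE-II had log2 fold changes from -0.10 to 0.07 without WT1, with a median of 0.0026. The other 28 ranged from -0.44 (Eif2ak3, the most variable member) to 0.24, with a median of -0.024. A range tends to widen with the number of genes, and a difference between these sets was not tested. With 6 libraries the 9 ranged from -0.39 (Herpud1) to 0.12 (Calr), with a median of -0.047, and the other 28 from -0.51 to 0.45, with a median of -0.21.

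**Figure D3:**
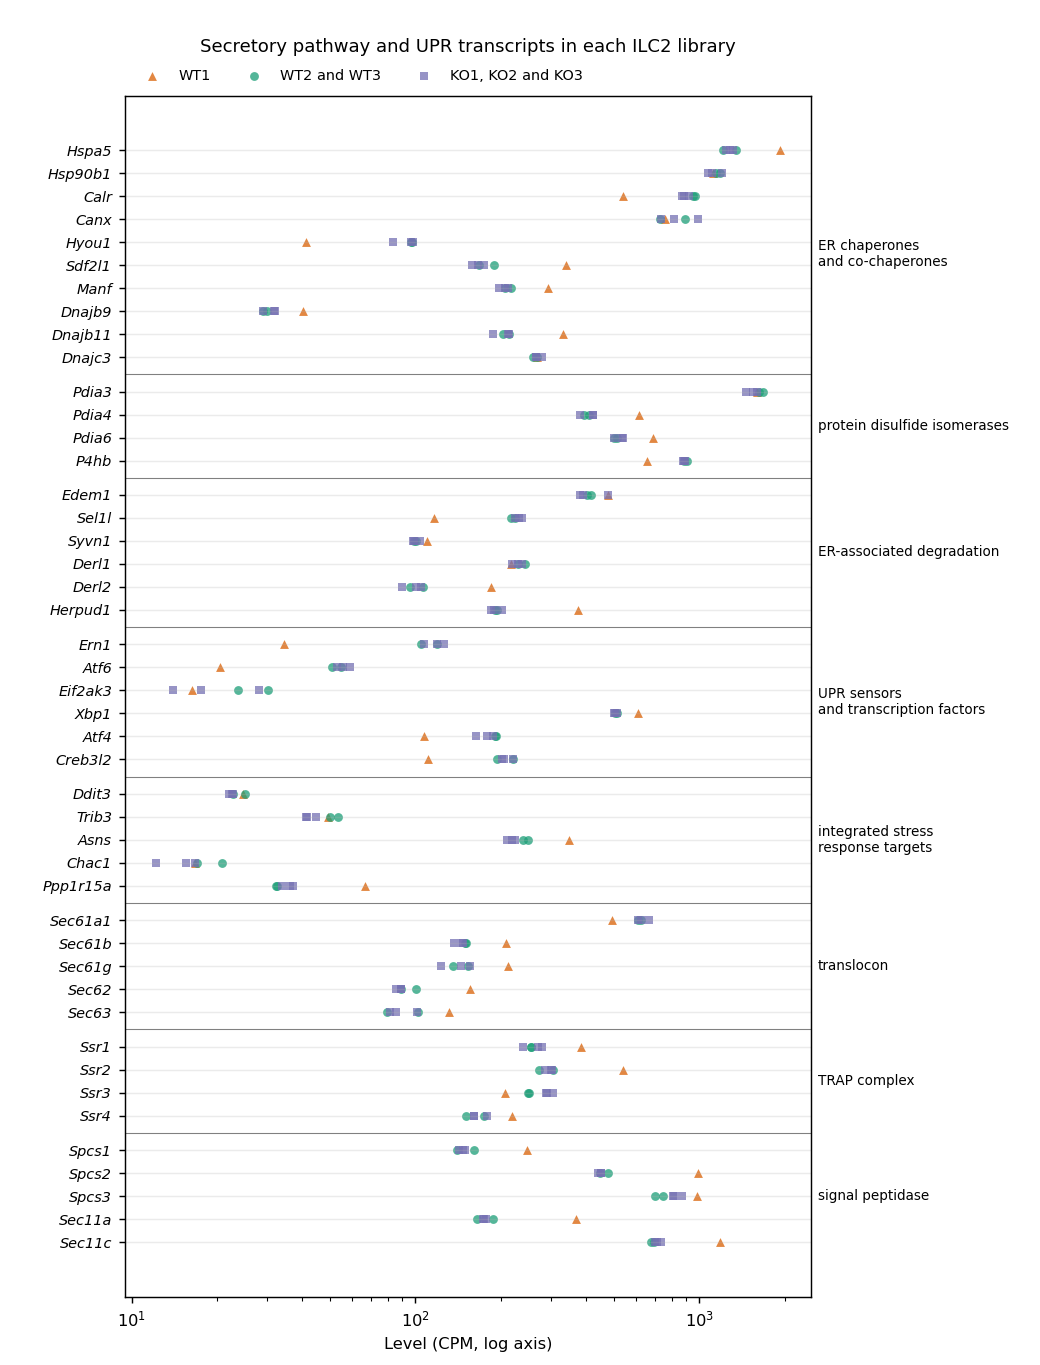
CPM (log axis) of the 45 members in each library, grouped by role: WT1 (orange triangles), WT2 and WT3 (green circles), KO1 to KO3 (purple squares). Levels span from Chac1 and Eif2ak3, below 31 CPM in all libraries, to Hspa5 and Pdia3, above 1200 CPM in all, and WT1 lies outside the other 5 libraries for 37 of 45 members.

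Levels per transcript length rank the members within ILC2s. The length used was that of the longest principal transcript, and which forms these cells express was not measured, so ranks depend on that choice. Sec11c led with 818 ± 26.2 CPM per kb (SD over the 5 libraries without WT1), followed by Pdia3 at 571 ± 29.8, Calr at 422 ± 19.6, Hsp90b1 at 404 ± 18.3, Hspa5 at 349 ± 14.7 and P4hb at 310 ± 4.21. Calr and Hsp90b1 did not differ beyond their spread. The catalytic subunit Sec11c was thus above its paralogue Sec11a, at 130 ± 6.16 CPM per kb. Xbp1, at 239 ± 2.76 CPM per kb, was the highest of the transcription factors, and Atf4 followed at 106 ± 6.77. Of the sensors, Ern1 was at 16.6 ± 1.32 CPM per kb, and Atf6 at 7.53 ± 0.42 and Eif2ak3 at 5.03 ± 1.53 CPM per kb were the lowest of all 45 members. The integrated stress response targets ran from Chac1 at 10.0 ± 1.89 to Asns at 113 ± 7.80 CPM per kb.

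WT1 differed from WT2 and WT3 in opposite directions for signal peptidase and for the sensors and transcription factors, while the other roles were mixed. Of the members, 26 were higher in WT1 than in each of the other 5 libraries and 11 lower than in each, against 36.8% and 39.5% of all tested genes. All 5 signal peptidase subunits were higher in WT1, by a median log2 ratio of 0.79 to the mean of WT2 and WT3. In contrast, 5 of 6 sensors and transcription factors were lower, with a median of -0.87. Ern1, Atf6 and Creb3l2 of that role are also long, at 6946, 7246 and 7082 bases, so role and length were not separated. The other roles ran from 2 members higher and 2 lower among disulfide isomerases to 4 higher and 1 lower in the translocon. The extremes were Ern1 at -1.70 and Spcs2 at 1.10. Transcript length moved with this shift: the 12 members under 2000 bases had a median of 0.64 and the 33 longer ones of 0.14. Spearman's correlation of shift with length was -0.41 across the 45 members and -0.37 across 12699 genes with a length. These points share the same 3 libraries. The part of length in the difference of WT1 was not tested. With a trend on transcript length removed, edgeR called 0 members with all 6 libraries. Without WT1 and with that trend removed, it called 0 members and 1.74% of all genes, a fit that does not bear on the shift of WT1.

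**Figure D4:**
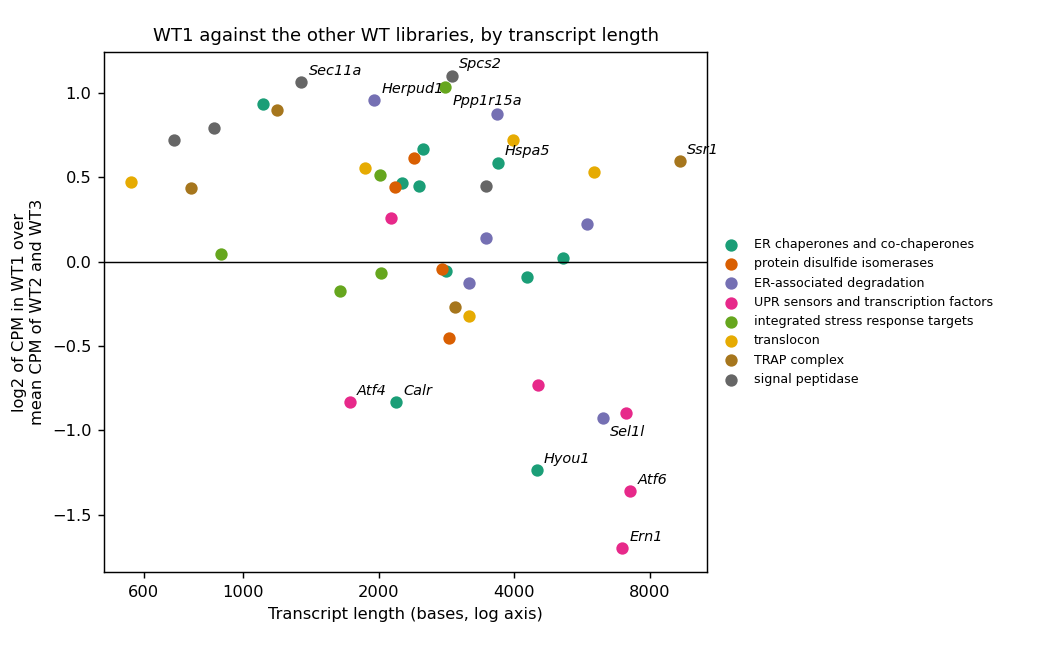
Log2 ratio of CPM in WT1 to the mean CPM of WT2 and WT3 for each of the 45 members (points, coloured by role) against transcript length in bases (log axis). The long transcripts Ern1, Atf6 and Hyou1 lie lowest, Ssr1 is long but high, and Atf4 and Calr are short to medium in length but low.

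A further 111 genes of the same route, none of them members, were read as its surroundings, and 110 were tested. These lists, too, were chosen with earlier results of these data known. With 6 libraries edgeR called 0 of 110 (7 at an unadjusted p under 0.05), DESeq2 0 and limma-voom 1. Without WT1 edgeR called 1 higher and 0 lower, against 1.17% and 0.652% of all genes. The gene called was Ero1l, ER oxidoreductin-1 alpha, which passes oxidising power to the disulfide isomerases. It was at 3582, 3742 and 3791 CPM in WT and at 4515, 4595 and 4372 CPM in KO, above every WT library in all 3 KO libraries. It rose by a log2 fold change of 0.26 (SE 0.04, adjusted p = 0.0108, edgeR without WT1), while with 6 libraries the value was 0.28 (adjusted p = 0.690). The adjusted p was 0.0894 when WT2 was left out in addition to WT1, 0.054 without WT3 and 0.0858 without KO2, and over all alternatives without WT1 it ran from 0.000534 to 0.0894. Its partners among the members, Pdia3, Pdia4, Pdia6 and P4hb, had log2 fold changes from -0.10 to 0.050 in the same fit.

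In the other lists no gene was called by edgeR without WT1, and the gene with the smallest p in that fit is given for each. Magt1, a subunit of the oligosaccharyltransferase, had the smallest p of the 14 N-glycosylation genes, with a log2 fold change of 0.27 (adjusted p = 0.107, edgeR). Lman1, the cargo receptor ERGIC-53, had that of the 28 genes of ER export and retrieval, at 0.23 (adjusted p = 0.127, edgeR). Srp14 had that of the 8 genes of the signal recognition particle and its receptor, at -0.14, and Vcp, the ATPase that pulls substrates from the ER, that of the 17 other tested genes of ER-associated degradation, at -0.13. Some genes of these lists had larger fold changes with a larger p, such as Mogs, a glucosidase of glycan trimming, at -1.08, and Kdelr3, a KDEL receptor, at 0.97, both named after their values were seen. Mogs varied within WT, at 118 CPM in WT2 and 54.6 CPM in WT3, the latter close to KO1 at 53.9 CPM. Kdelr3 was at a low level, from 1.89 to 5.41 CPM across the libraries. The 25 other integrated stress response genes had 6 at an unadjusted p under 0.05 that were lower in KO and 0 that were higher without WT1 (edgeR), against 5.6% and 8.07% of all genes. With 6 libraries 1 was lower and 0 were higher. The lowest p without WT1 was that of Slc7a5, a large neutral amino acid transporter, at 229, 306 and 310 CPM in WT and 274, 252 and 243 CPM in KO. Its log2 fold change was -0.14 with 6 libraries and -0.26 without WT1 (adjusted p = 0.0577, edgeR), with KO below WT2 and WT3 and above WT1. The median over the 25 genes was -0.038 without WT1 and -0.10 with 6 libraries. In bulk RNA a lower level per cell and fewer cells with the transcript cannot be told apart.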

How the data were processed

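The authors deposited estimated counts per gene (60.2% of non-zero values whole within 0.001), and per the submitters' processing notes STAR 2.7.8, Partek 10.0, DESeq2 and mm10 were used. How genes were counted, and whether by strand, is not given in the sources used here, so reads of overlapping genes (12 members, such as Spcs3 with Asb5) cannot be told apart. Counts were rounded and tested in R 4.3.3 with edgeR 4.0.16 (robust quasi-likelihood, TMM, filterByExpr with minimum count 10 and minimum total 15, genotype as the only term), adjusted by Benjamini-Hochberg over all tested genes. Alternatives were DESeq2 1.42.0, limma 3.58.1 (voom with sample quality weights), other size factors, no filter, a replicate block, a length trend and leaving out each library. No 2 replicates agreed within sampling noise. Lengths (longest principal transcript) and positions came from GENCODE on GRCm38 for 97.6% of genes. Members and lists were chosen with earlier results of these data known. Values per library are given for called members, members separated without WT1 at an unadjusted p under 0.05, the 2 highest per role, and Xbp1, Atf4, Atf6, Ern1 and Eif2ak3; of each other list, up to 4 called genes or else that with the smallest p. Chac1, Ddit3 and Ppp1r15a were added to these after their values were seen.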

Additional observations from a re-analysis of the deposited data

How the results depend on the processing

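With all 6 libraries, the count of 0 members called by edgeR held under each alternative run, and the other pathway genes called were 1 by limma-voom and 0 to 1 on leaving out each library. Without WT1, members called were 1 by DESeq2 (Ssr3), 3 with the replicate block (Ssr3, Spcs3 and Eif2ak3) and 0 to 2 on leaving out another library, and other pathway genes called were 2 by DESeq2, 3 with the replicate block, 2 with the length trend and 0 to 2 on leaving out another library. Deviations from the genotype mean of WT and KO libraries with the same replicate number correlated at -0.046, -0.036 and -0.0091. The WT mean includes WT1, which stood apart, and libraries of unlike number were not compared, so pairing by number was not excluded. Without WT1, KO1 has no partner in the replicate block, so the genotype difference in that fit rests on the other replicates. Over all genes, calls were 4 by edgeR, 108 by DESeq2 and 95 by limma-voom with 6 libraries and 0 with the block, and 248, 412, 218 and 570 (4.18% of genes) without WT1. Of the single-gene values under alternatives, 20 of 252 with 6 libraries and 18 of 242 without WT1 had the opposite sign, and no called value reversed. With WT1 left out the WT group holds 2 libraries, and leaving out another leaves 1, whose spread is assumed to be like that of KO.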

Other observations

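Cebpb, a C/EBP factor among the other integrated stress response genes and chosen here after its values were seen, was at 62.3 CPM in WT1, at 4.81 and 2.37 CPM in WT2 and WT3, and at 2.20, 1.29 and 1.58 CPM in KO1 to KO3. All KO libraries lay below all WT libraries, and 1 library held most of the transcript. Its log2 fold change was -3.76 with 6 libraries (adjusted p = 0.690, edgeR) and -1.05 without WT1 (adjusted p = 0.233, edgeR).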
